A study of Mus musculus with 34 samples.

Results

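In skeletal muscle the genes Maob, Dkk3, Tspan8, Cbfb, Setd7, Lrrc2, Cp and Dusp26 were selected on measured RNA counts: each was lower in mice without FoxO factors and without insulin and IGF-1 receptors (QKO) than in their floxed controls (Qlox), or lower than in mice without the receptors alone (MIGIRKO). They are 8 of the 46071 genes counted, and all 8 passed the filter on low counts that left 13646 genes for testing. Both of those contrasts selected the genes, so the QKO values are given as a description. The changes in MIRKO, MIGF1RKO and MIGIRKO against their own floxed controls were not used for the choice and were tested, although the MIGIRKO libraries took part in it. Choosing genes for a QKO value below MIGIRKO favours high MIGIRKO values. For Cp and Dusp26, which were called in that contrast alone, a rise in MIGIRKO is therefore overstated by the choice and its p-value is too small.

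RNA came from quadriceps and gastrocnemius, powdered together, of mice that were male unless stated otherwise, with 34 libraries in 8 groups. All were of a mixed background of C57Blk6, C57Blk6J and 129 strains. The deletions were specific to muscle: of the insulin receptor in MIRKO (4 libraries), of the IGF-1 receptor in MIGF1RKO (5), of both receptors in MIGIRKO (6), and of both receptors with FoxO1, FoxO3 and FoxO4 in QKO (7). The controls with the matching floxed alleles were IRlox (3 libraries), IGFRlox (4), IRIGFRlox (3) and Qlox (2). Deletion in MIRKO, MIGIRKO and QKO was driven by Acta1-Cre, the Cre of skeletal actin, which acts in muscle fibers and leaves the genes intact in the other cells of the tissue. The driver of MIGF1RKO, its Nnt genotype and the ages are not given in the sources used here. Each line was a colony of its own with floxed littermates as controls, so colony and genotype cannot be told apart when lines are set against each other. For Nnt, a mitochondrial gene that differs between substrains, MIGIRKO and IRIGFRlox were heterozygous, and MIRKO, IRlox, QKO and Qlox were a mix of homozygous and heterozygous mice. RNA was of whole muscle, so fewer cells of a type and less RNA per cell cannot be told apart.

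Insulin and IGF-1 act on muscle through related receptor kinases that signal to Akt. Akt phosphorylates the forkhead factors FoxO1, FoxO3 and FoxO4 and keeps them out of the nucleus. When receptor signalling is lost the factors enter the nucleus, where in muscle they are best known for inducing genes of protein breakdown and autophagy.

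Total counts were 1499025 to 7581198 per library. Foxo4 was at 5.08 to 10.2 CPM (the count relative to the scaled total of its library) in QKO and 77.1 to 213 in the other 7 groups, and Insr at 27.8 to 69.8 CPM in MIRKO, MIGIRKO and QKO and 141 to 255 in the other 5. Foxo1 was 12.6 to 28.3 CPM in QKO and 132 to 148 in Qlox. In MIGIRKO (22.0 to 74.0 CPM) and MIRKO (22.2 to 70.8) Foxo1 overlapped the QKO range. Whole-gene counts of knockout and control overlapped for Foxo3 (93.1 to 136 CPM in QKO and 79.7 to 103 in Qlox). They also did for Igf1r in MIGIRKO (15.1 to 25.7 CPM, and 16.5 to 20.3 in IRIGFRlox). Myofiber markers were abundant in every library, Acta1 at 13481 to 39517 CPM. Of the 34 libraries 14, among them all 4 of MIRKO, correlated best across tested genes with a library of another group. MIRKO 4 was nearest to MIGIRKO 3 (r = 0.981), MIGIRKO 6 to MIRKO 3 (0.973), QKO 5 to Qlox 2 (0.959) and QKO 6 to MIGIRKO 6 (0.961). Insr is low in both MIRKO and MIGIRKO and Igf1r counts overlap between them, so an exchange of the labels of MIRKO 4 and MIGIRKO 6 cannot be settled from these files. Changes of the 8 genes that move by over 1.5 times or change their call without this pair are given both ways. For other genes, gene lists and markers, values without this pair are not given. Leaving out QKO 5 and QKO 6 moved no QKO difference of the 8 genes by more than 0.22 on the log2 scale. Library numbers fall into 6 runs of consecutive numbers, each of which holds MIGIRKO and QKO libraries.

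The start regions of the genes were searched for the core letters that FoxO factors are known to bind, since the genes were chosen for lower RNA after FoxO loss. RefSeq windows of the GRCm38.p6 build, reaching from 250 bases before to 50 after the start, were at hand for 5 of the 8 genes (Cbfb, Lrrc2, Setd7, Tspan8 and Cp). The forkhead core GTAAACA, searched on both strands, stood once, in Tspan8, beginning 18 bases before the RefSeq start. It was present in 3.65% of all 32851 windows. GENCODE places the start of Tspan8 at 115816832, ahead of the Tspan8 window, so by that annotation the match lies within the gene. The insulin response element core CAAAACA stood once, in Cp, 44 bases after the first of its starts and 152 before the second, in the 5′ untranslated exon of the annotation, and was present in 6.28% of all windows. The windows of Cbfb, Lrrc2 and Setd7 held neither string, which says only that these letters are not there. Near forms were not searched. The Lrrc2 stretch printed below holds tgtttat, which differs from the reverse complement TGTTTAC in its last letter alone. Lrrc2 is not particular in this. The Setd7 window holds gtaaacg, which differs from GTAAACA in its last letter alone. The Cbfb window holds tgtttgc, which differs from TGTTTAC in its letter before the last alone. The share of all windows with such near forms was not counted. Below are the 250 bases before the RefSeq start of Tspan8 (chr10:115817034-115817283, plus strand) and 27 bases around the Cp match (chr3:19957087-19957113, plus strand). The last stretch, from a window without either searched string, is the 250 bases before the Lrrc2 start (chr9:110951295-110951544, plus strand). Capitals mark the match, which reads as the reverse complement because it lies on the minus strand.
Tspan8: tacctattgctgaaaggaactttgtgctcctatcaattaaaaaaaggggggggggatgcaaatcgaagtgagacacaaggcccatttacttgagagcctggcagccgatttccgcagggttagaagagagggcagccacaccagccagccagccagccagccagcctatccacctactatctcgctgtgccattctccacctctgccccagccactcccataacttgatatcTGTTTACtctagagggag
Cp: gaactgtgttTGTTTTGgtttttcccc
Lrrc2: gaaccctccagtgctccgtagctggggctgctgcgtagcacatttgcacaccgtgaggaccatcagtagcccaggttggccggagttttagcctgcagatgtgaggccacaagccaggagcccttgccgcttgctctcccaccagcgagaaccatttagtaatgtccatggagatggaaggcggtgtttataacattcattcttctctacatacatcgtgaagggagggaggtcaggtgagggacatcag

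The 8 genes fell into 2 patterns across the genotypes. Maob, Dkk3, Tspan8, Cbfb and Setd7 were already lower in MIGIRKO than in its controls and had their lowest group mean in QKO. Dusp26 and Cp were higher in MIGIRKO than in its controls, and Lrrc2 pointed the same way without passing the test, and all 3 were lower in QKO than in MIGIRKO. In QKO the means of Dusp26 and Lrrc2 were the lowest of the 8 groups, and that of Cp was above IRIGFRlox. In MIGIRKO against IRIGFRlox 7 of the 8 genes were called at an adjusted p under 0.05 (edgeR's quasi-likelihood test), 2 higher and 5 lower, in a comparison in which 33.7% of all tested genes were called, 17.0% higher and 16.7% lower. In MIRKO against IRlox 1 was called (Maob, lower) beside 1.25% of all genes, and in MIGF1RKO against IGFRlox 2 were called (Dkk3 and Cbfb, lower) beside 0.616%. The median log2 change of the 8 genes was -0.54 in MIGIRKO, -0.45 in MIGF1RKO and -0.11 in MIRKO, and that of all tested genes was 0.04, -0.00 and 0.03 in the same order.

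**Figure D1:**
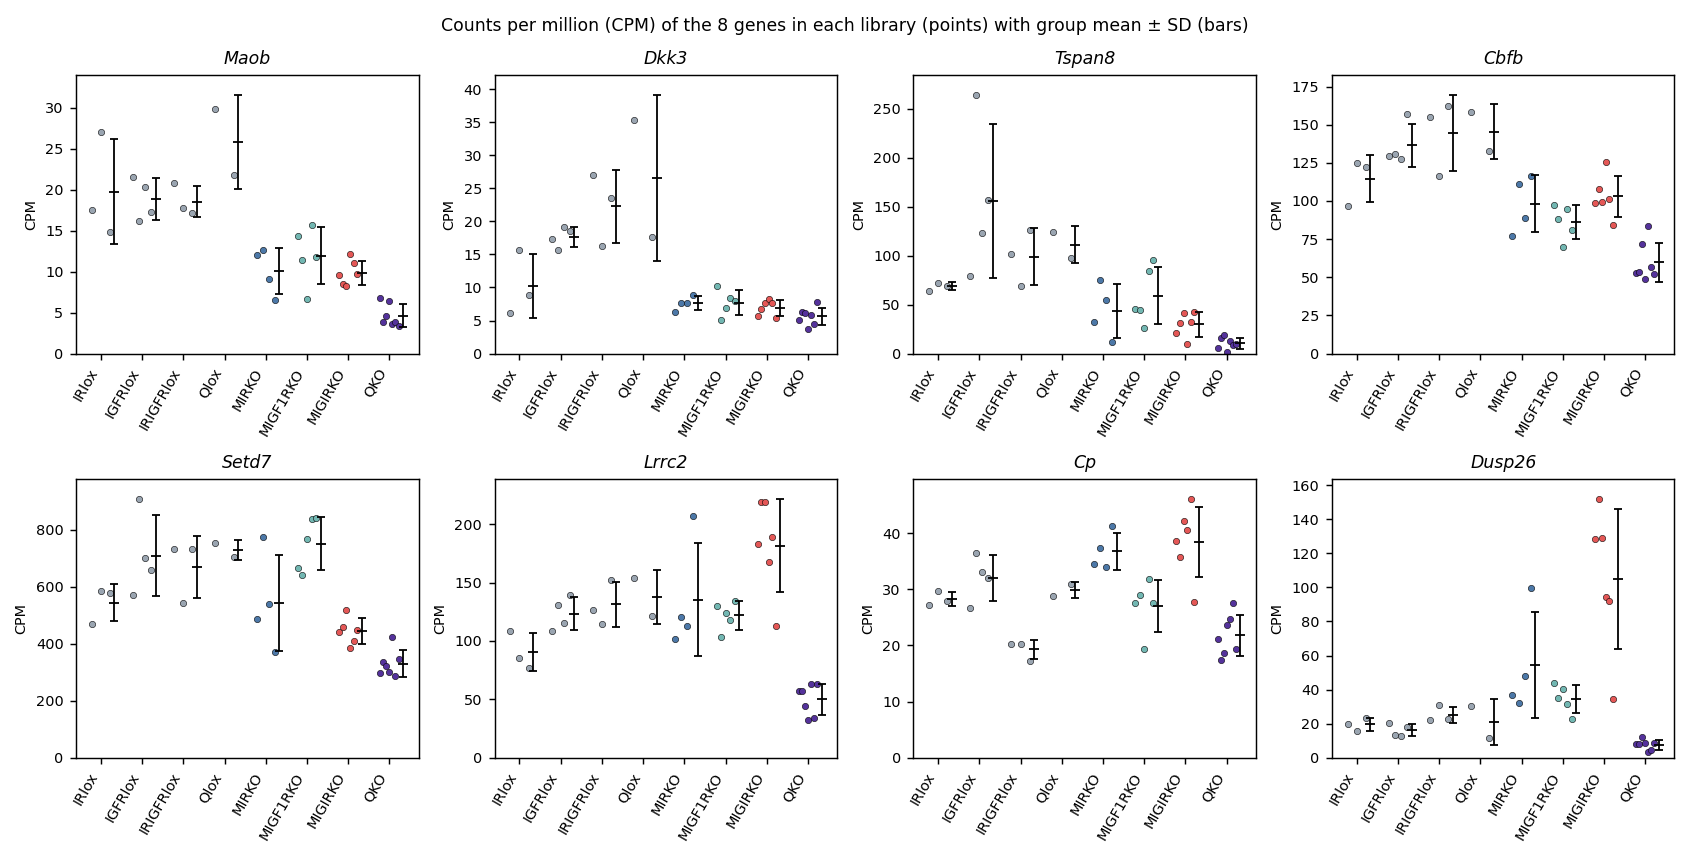
CPM of each gene (vertical axis, linear from 0) in each of the 34 libraries, by genotype group; points are libraries and bars are the group mean ± SD (n = 2 to 7). For Maob, Dkk3, Tspan8, Cbfb and Setd7 the MIGIRKO mean lies between those of IRIGFRlox and QKO, while Lrrc2, Cp and Dusp26 have their highest mean in MIGIRKO.

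In the contrasts that selected the genes, 6 of the 8 were called lower in QKO against Qlox, where 0.454% of all genes were, and 7 of the 8 were called lower in QKO against MIGIRKO, where 14.0% were. Altogether 32 genes were called lower in both, among them 5 of the 8 (Maob, Cbfb, Lrrc2, Setd7 and Tspan8). Dkk3 entered the group through Qlox alone, and Cp and Dusp26 through MIGIRKO alone. Against all 12 floxed libraries, every QKO library was below the lowest floxed one for Maob, Cbfb, Lrrc2, Setd7 and Tspan8, 6 of 7 were for Dusp26, 5 of 7 for Dkk3 and 0 of 7 for Cp. The share of all tested genes that did the same was not counted. Choosing genes for low QKO values favours such separation, so it is a description only. Read per kilobase of exon over the 12 floxed libraries, Tspan8 (65.9 CPM per kb) and Setd7 (61.2) were the most abundant of the 8, Cbfb (38.6) and Lrrc2 (31.8) followed, and Dusp26 (8.73), Maob (7.23), Dkk3 (5.49) and Cp (2.88) were the scarcest.

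Maob (ENSMUSG00000040147, chromosome X, 16709282 to 16817366, GRCm38) encodes monoamine oxidase B, an enzyme of the outer mitochondrial membrane that oxidises amines and releases hydrogen peroxide. It was at 17.5, 27.0 and 14.8 CPM in IRlox, at 21.6, 16.2, 20.4 and 17.2 in IGFRlox, at 20.8, 17.8 and 17.1 in IRIGFRlox, and at 29.9 and 21.8 in Qlox. In the knockouts it was at 12.0, 12.6, 9.10 and 6.52 CPM in MIRKO, at 14.3, 11.4, 6.67, 15.6 and 11.7 in MIGF1RKO, at 8.18 to 12.1 with a median of 9.64 in MIGIRKO, and at 3.37 to 6.82 with a median of 3.84 in QKO. All 3 receptor knockouts lay below their own controls with no shared value, and QKO lay below all of them except the library MIGF1RKO 3 and MIRKO 4, which lay within the QKO range. Maob fell in MIGIRKO, 1.88-fold (log2 -0.91 ± 0.22 SE, edgeR adjusted p = 0.0020), and in MIRKO (-0.97 ± 0.25, adjusted p = 0.042). The MIGF1RKO change of -0.65 ± 0.22 did not pass (adjusted p = 0.21). With MIRKO 4 and MIGIRKO 6 left out the MIRKO value was -0.81 (adjusted p = 0.18) and the MIGIRKO value -0.91 (adjusted p = 0.0019). The MIRKO call was also lost when IRlox 1, IRlox 2, IRlox 3 or MIRKO 3 was left out, with adjusted p of 0.053 to 0.27. QKO stood at a log2 difference of -2.45 ± 0.26 from Qlox and -1.07 ± 0.20 from MIGIRKO. The order of group means ran from Qlox through the other floxed groups to MIGF1RKO, MIRKO, MIGIRKO and QKO, and the only neighbours in it without overlap were IRIGFRlox and MIGF1RKO, and MIGIRKO and QKO.

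Dkk3 (ENSMUSG00000030772, chromosome 7, 112116017 to 112159057) encodes a secreted glycoprotein of the Dickkopf family, whose other members inhibit Wnt receptors. It was at 6.19, 15.7 and 8.80 CPM in IRlox, at 17.4, 15.7, 19.1 and 18.5 in IGFRlox, at 27.0, 16.3 and 23.5 in IRIGFRlox, and at 35.4 and 17.7 in Qlox. MIRKO had 6.25, 7.68, 7.69 and 8.89 CPM, MIGF1RKO 10.2, 5.07, 6.97, 8.43 and 7.91, MIGIRKO 5.34 to 8.26 with a median of 7.20, and QKO 3.76 to 7.80 with a median of 5.81. The 4 knockout groups overlapped each other, and apart from MIRKO and IRlox each lay wholly below its own controls. Dkk3 fell 3.22-fold in MIGIRKO (log2 -1.69 ± 0.23, edgeR adjusted p = 2.1e-06), and it fell in MIGF1RKO (-1.20 ± 0.23, adjusted p = 0.0068). In MIRKO the log2 change was -0.40 ± 0.27 (adjusted p = 0.45), set against IRlox, whose 3 libraries spanned the knockout level and the level of the other floxed groups. Without IRlox 2 that value was 0.00325. QKO stood at -2.21 ± 0.26 from Qlox but only -0.29 ± 0.21 from MIGIRKO, and 5 of 6 library runs had the QKO value lower. Dkk3 in QKO was thus low against Qlox and shared the range of MIGIRKO.

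Tspan8 (ENSMUSG00000034127, chromosome 10, 115816832 to 115849893), the gene with the forkhead core in its printed RefSeq window, encodes a tetraspanin, a membrane protein that organises other surface proteins.  It was at 64.3, 72.1 and 69.4 CPM in IRlox, at 78.8, 264, 123 and 156 in IGFRlox, at 101, 69.1 and 126 in IRIGFRlox, and at 124 and 97.7 in Qlox. MIRKO had 31.9, 75.1, 54.9 and 11.3 CPM, MIGF1RKO 45.9, 44.4, 25.8, 84.3 and 95.3, MIGIRKO 9.94 to 42.2 with a median of 32.0, and QKO 1.88 to 19.0 with a median of 9.22. MIGIRKO and QKO were below every floxed library, whereas MIRKO and MIGF1RKO each shared part of the range of their controls. Tspan8 fell 3.34-fold in MIGIRKO (log2 -1.74 ± 0.46, edgeR adjusted p = 0.0052). The changes of -1.40 ± 0.46 in MIGF1RKO (adjusted p = 0.19) and -0.67 ± 0.52 in MIRKO (adjusted p = 0.53) did not pass. The lowest MIRKO value is that of MIRKO 4, and without MIRKO 4 and MIGIRKO 6 the MIRKO change was -0.34 (adjusted p = 0.80). QKO stood at -3.44 ± 0.52 from Qlox and -1.53 ± 0.43 from MIGIRKO, with 1 MIGIRKO library, MIGIRKO 4, inside the QKO range. The lowest QKO value, 1.88 CPM, rests on 5 counts.

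Cbfb (ENSMUSG00000031885, chromosome 8, 105170674 to 105217989) encodes core binding factor beta, the subunit that does not bind DNA itself but strengthens the binding of its Runx partners. It was at 96.9, 125 and 122 CPM in IRlox, at 130, 131, 128 and 157 in IGFRlox, at 155, 116 and 163 in IRIGFRlox, and at 158 and 133 in Qlox. MIRKO had 76.8, 111, 88.8 and 116 CPM, MIGF1RKO 97.3, 88.1, 69.7, 94.5 and 81.2, MIGIRKO 84.5 to 126 with a median of 101, and QKO 48.9 to 83.6 with a median of 53.4. MIGF1RKO was wholly below IGFRlox, MIGIRKO overlapped IRIGFRlox through 1 library on each side, and QKO was below all floxed and all MIGIRKO libraries. Cbfb fell in MIGF1RKO, with a log2 change of -0.66 ± 0.15 (edgeR adjusted p = 0.029), and in MIGIRKO (-0.49 ± 0.16, adjusted p = 0.015), and its MIRKO change was -0.22 ± 0.17 (adjusted p = 0.52). Leaving out IGFRlox 2, IGFRlox 4, MIGF1RKO 2, MIGF1RKO 3 or MIGF1RKO 5 ended the MIGF1RKO call (adjusted p of 0.060 to 0.12), and leaving out IRIGFRlox 1 or IRIGFRlox 3 ended the MIGIRKO call (0.078 and 0.099). QKO stood at -1.29 ± 0.17 from Qlox and -0.80 ± 0.13 from MIGIRKO.

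Setd7 (ENSMUSG00000037111, chromosome 3, 51515319 to 51560879) encodes a lysine methyltransferase that adds a single methyl group to histone H3 lysine 4 and to other proteins. It was at 468, 585 and 580 CPM in IRlox, at 573, 907, 700 and 659 in IGFRlox, at 732, 545 and 732 in IRIGFRlox, and at 755 and 704 in Qlox. MIRKO had 486, 775, 539 and 372 CPM, MIGF1RKO 665, 643, 769, 839 and 843, MIGIRKO 384 to 520 with a median of 445, and QKO 286 to 426 with a median of 322. MIGIRKO was below IRIGFRlox with no shared value, and MIRKO and MIGF1RKO overlapped their controls widely. Setd7 fell 1.51-fold in MIGIRKO (log2 -0.59 ± 0.17, edgeR adjusted p = 0.0064), and stood at 0.08 ± 0.16 in MIGF1RKO (adjusted p = 0.94) and -0.00 ± 0.18 in MIRKO (adjusted p = 1.00). Without MIRKO 4 and MIGIRKO 6 the MIRKO change was 0.14 (adjusted p = 0.77). QKO stood at -1.14 ± 0.18 from Qlox and -0.43 ± 0.13 from MIGIRKO, and QKO 5 was above MIGIRKO 4 and MIGIRKO 5. An antisense transcript, 5031434O11Rik, shares 131 bases of exon with Setd7 and had at most 25 counts in a library.

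Scaling bears on the smaller of these changes. TMM scaling factors averaged 1.23 in MIGIRKO and 0.876 in IRIGFRlox, and with library totals alone the median of all genes in MIGIRKO shifted by 0.49 on the log2 scale. With library totals 90.2% of the MIGIRKO calls were higher, against 50.4% with TMM, and the counts with library totals given for gene lists carry this shift of all genes. On that scaling Dkk3 (-1.19, edgeR adjusted p = 0.000255) and Tspan8 (-1.26, adjusted p = 0.023) were still called lower, Maob (-0.41, adjusted p = 0.11) and Setd7 (-0.10, adjusted p = 0.60) were not called, and Cbfb stood at 0.01 (adjusted p = 0.97). The calls of Maob in MIRKO (-0.72, adjusted p = 0.081) and Cbfb in MIGF1RKO (-0.58, adjusted p = 0.11) were lost on it too.

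**Figure D2:**
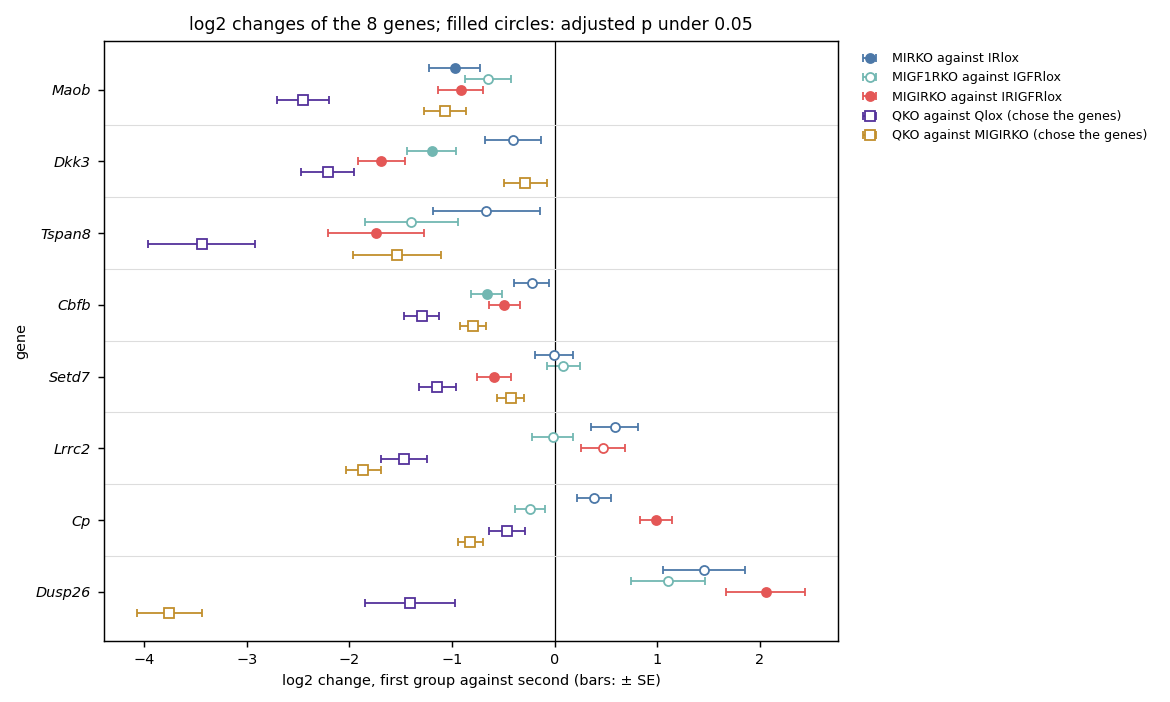
Fitted log2 change ± SE (horizontal axis) of each gene in 3 tested comparisons (circles, filled where the adjusted p is under 0.05) and in the 2 comparisons that selected the genes (open squares). The MIGIRKO circles lie left of 0 for the upper 5 genes and right of 0 for Lrrc2, Cp and Dusp26, while every square lies left of 0.

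Dusp26 (ENSMUSG00000039661, chromosome 8, 31089471 to 31097047) encodes an atypical dual-specificity phosphatase, a class of enzymes that can remove phosphate from tyrosine and from serine or threonine. It was at 19.6, 16.0 and 23.4 CPM in IRlox, at 20.4, 13.6, 13.0 and 17.9 in IGFRlox, at 22.1, 30.8 and 22.7 in IRIGFRlox, and at 30.5 and 11.5 in Qlox. MIRKO had 36.8, 32.3, 48.2 and 99.7 CPM, MIGF1RKO 43.7, 35.3, 40.6, 31.5 and 22.6, MIGIRKO 128, 152, 129, 94.3, 92.2 and 34.8, and QKO 3.63 to 12.0 with a median of 8.03. Each receptor knockout was wholly above its own controls, and the QKO range lay below every other library except Qlox 2. Dusp26 rose 4.16-fold in MIGIRKO (log2 2.06 ± 0.38, edgeR adjusted p = 0.00017), a value that the choice through MIGIRKO pushes upward. The changes in MIRKO (1.46 ± 0.40, adjusted p = 0.064) and MIGF1RKO (1.11 ± 0.36, adjusted p = 0.18) pointed the same way and did not pass. The highest MIRKO value belongs to MIRKO 4 and the lowest MIGIRKO value to MIGIRKO 6. Without both, the log2 change was 2.24 in MIGIRKO (adjusted p = 2.42e-07), 0.98 in MIRKO (adjusted p = 0.15) and 1.11 in MIGF1RKO (adjusted p = 0.019). QKO stood at -3.75 ± 0.32 from MIGIRKO, the farthest of the 8 genes, and at -1.41 ± 0.44 from Qlox, a value that was -0.56 without Qlox 1.

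Lrrc2 (ENSMUSG00000032495, chromosome 9, 110951545 to 110984066) encodes a leucine-rich repeat protein found in heart and skeletal muscle. It was at 109, 85.1 and 77.2 CPM in IRlox, at 108, 131, 115 and 139 in IGFRlox, at 127, 115 and 152 in IRIGFRlox, and at 154 and 122 in Qlox. MIRKO had 102, 121, 113 and 207 CPM, MIGF1RKO 130, 103, 124, 118 and 134, MIGIRKO 183, 219, 219, 167, 189 and 113, and QKO 32.7 to 63.2 with a median of 56.9. QKO lay below every other library, and the other 7 groups formed a chain in which each overlapped the next. The MIGIRKO change was 0.47 ± 0.21 (edgeR adjusted p = 0.087), that of MIRKO 0.59 ± 0.23 (adjusted p = 0.19) and that of MIGF1RKO -0.02 ± 0.20 (adjusted p = 0.99). As for Dusp26, MIRKO 4 was the highest of its group and MIGIRKO 6 the lowest. Without both, the MIRKO change was 0.31 (adjusted p = 0.50), and with all 12 floxed libraries as control it was 0.18 (adjusted p = 0.51). Without both, Lrrc2 was called higher in MIGIRKO (0.58, adjusted p = 0.011), and it was called there too against the 12 floxed libraries together (0.60, adjusted p = 0.0016), with library runs as a term (0.58, adjusted p = 0.043) and with library totals (0.96, adjusted p = 0.0010). QKO stood at -1.86 ± 0.17 from MIGIRKO and -1.47 ± 0.23 from Qlox. Lrrc2 was called lower in both of these contrasts, so the choice through MIGIRKO can push its MIGIRKO values upward too.

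Cp (ENSMUSG00000003617, chromosome 3, 19957054 to 20009145) encodes ceruloplasmin, a copper-carrying ferroxidase that helps iron leave cells. It was at 27.2, 29.7 and 27.9 CPM in IRlox, at 26.7, 36.4, 33.0 and 32.0 in IGFRlox, at 20.3, 20.3 and 17.3 in IRIGFRlox, and at 28.9 and 30.9 in Qlox. MIRKO had 34.5, 37.4, 34.1 and 41.2 CPM, MIGF1RKO 27.6, 28.9, 19.4, 31.8 and 27.6, MIGIRKO 27.8 to 46.0 with a median of 39.5, and QKO 17.5 to 27.6 with a median of 21.1. MIGIRKO and MIRKO were each wholly above their controls, and QKO was wholly below both Qlox and MIGIRKO but within the span of the 12 floxed libraries. Cp rose 1.99-fold in MIGIRKO (log2 0.99 ± 0.16, edgeR adjusted p = 2.0e-05), a value that the choice through MIGIRKO likewise pushes upward, and stood at 0.38 ± 0.17 in MIRKO (adjusted p = 0.23) and -0.24 ± 0.15 in MIGF1RKO (adjusted p = 0.61). IRIGFRlox was the lowest of the floxed groups, and with all 12 floxed libraries as control the MIGIRKO change was 0.48 (adjusted p = 0.0023). QKO stood at -0.82 ± 0.12 from MIGIRKO and -0.46 ± 0.17 from Qlox. Hps3, on the opposite strand, shares 108 bases of exon with Cp, had at most 143 counts in a library and was not called in MIGIRKO (0.34 ± 0.21, adjusted p = 0.20). The strand setting of the counting is not given in the sources used here.

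None of the 8 genes was called between the floxed groups IRlox, IGFRlox and IRIGFRlox by edgeR (0.125% of all genes were) or by limma-voom. At an unadjusted p under 0.05 there were 2, Cp (edgeR adjusted p = 0.13) and Dkk3 (adjusted p = 0.16). The share of all genes under that unadjusted threshold was not counted, and the 0.125% is for adjusted p. Cp was lowest in IRIGFRlox and Dkk3 in IRlox. The other 6 had adjusted p of 0.51 to 1.00.

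Within the runs of consecutive library numbers, where MIGIRKO and QKO stood side by side, the QKO value was lower in 6 of 6 runs for Maob, Cbfb, Lrrc2, Cp and Dusp26. It was lower in 5 of 6 for Dkk3, Setd7 and Tspan8, the exceptions being run 6 for Dkk3 and run 4 for the other two. The log2 difference within runs had a median of -4.07 for Dusp26 (range -4.55 to -1.98), -1.81 for Lrrc2 (-2.51 to -0.84) and -0.79 for Cp (-1.02 to -0.52). With the runs as a term in the fit, 8 of the 8 genes were called in MIGIRKO, 2 in MIGF1RKO and 2 in MIRKO (Maob and Dusp26). The number of all genes called also depends on the setting. The share of all genes called in the fit with runs is not given here. Its counts of the 8 genes therefore cannot be set against the shares of the main fit. Over all alternatives the number of all genes called was 3109 to 7002 in MIGIRKO, 30 to 244 in MIGF1RKO and 9 to 2830 in MIRKO. Qlox libraries were present in runs 4 and 5 only, and QKO was the lower of the pair for all 8 genes in both. These are the libraries that selected the genes, so lower QKO values within runs follow in part from the choice. The share of all genes that did the same was not counted.

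**Figure D3:**
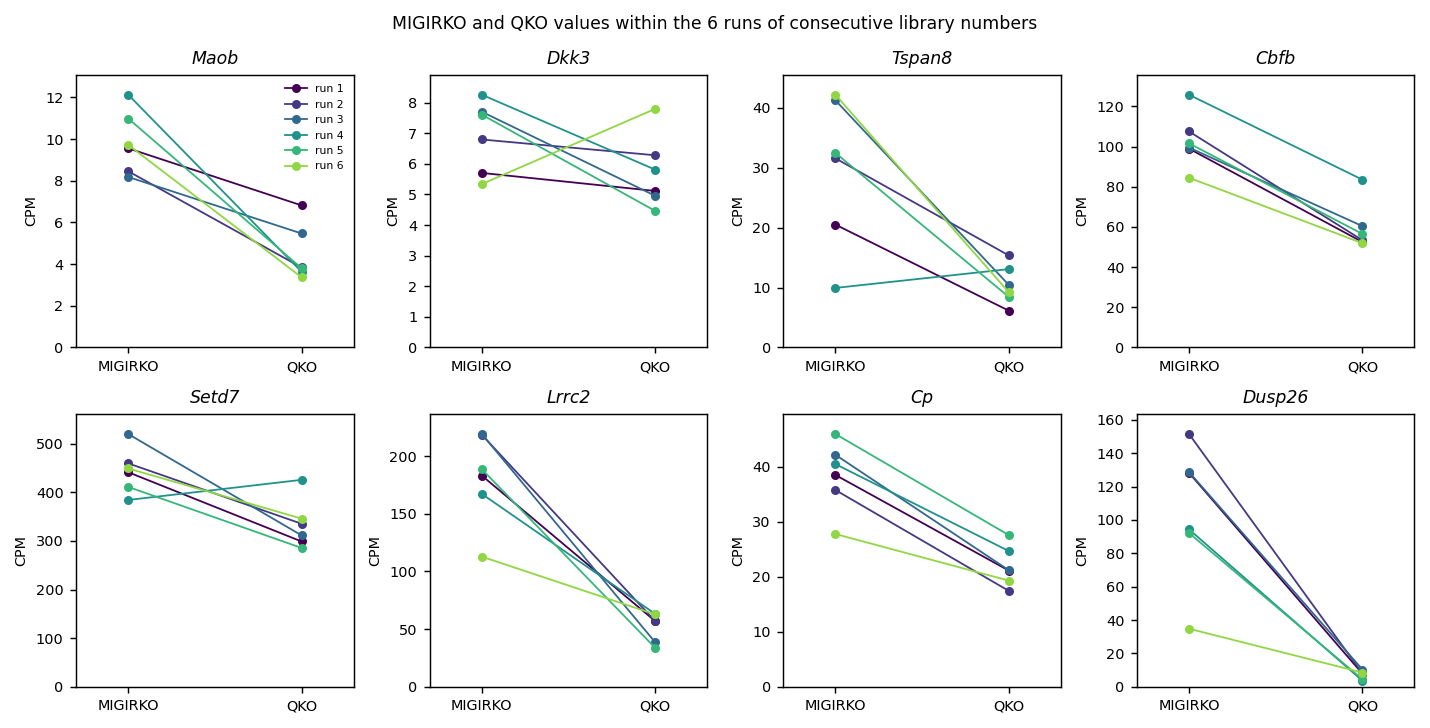
CPM (vertical axis, linear from 0) of the MIGIRKO library and the QKO library of each of 6 runs of consecutive library numbers, joined by a line; the QKO point of run 3 is the mean of 2 libraries. All 6 lines fall for Maob, Cbfb, Lrrc2, Cp and Dusp26, and 1 line rises for each of Dkk3, Tspan8 and Setd7.

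The genes most like each member across the 34 libraries were taken by Pearson's r of log2 CPM among 12037 genes. These r values are descriptions over libraries that share genotypes and depth. Lrrc2 was most like Mindy1 (r = 0.88) and Pnpla2, the triglyceride lipase of fat breakdown (r = 0.88), and then Wfikkn2 (0.84). Dusp26 was most like Ifi27 (0.86), Mlph (0.85) and Kctd20 (0.84), and Cp most like Prkar2b (0.85), Aoc3 (0.84) and Vwa5a (0.81). Setd7 and Tspan8 were each the closest gene to the other (0.87), with Zfand5 (0.85) and Dpysl5 (0.84) next for Setd7 and Prune1 (0.87) and Dnm3 (0.85) next for Tspan8. After the group means were taken out their r was 0.69, the highest of any pair of the 8. Maob was most like Fdft1 (0.83), Kcnab1 (0.82) and Foxo4 (0.81), Dkk3 like Kcnab1 (0.83), Cbfb (0.81) and Sorbs2 (0.79), and Cbfb like Maob (0.81), Dkk3 (0.81) and Foxo4 (0.80). Foxo4 is itself deleted in QKO, so a gene low in QKO follows it by selection.

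Of 30 known FoxO targets of muscle, 8 rose and 9 fell in MIGIRKO (median log2 change 0.11, all genes 0.04), 1 rose in MIRKO and 0 moved in MIGF1RKO. Mstn, the growth inhibitor myostatin, was at -2.85 ± 0.37 (edgeR adjusted p = 2.0e-06), Sod2, the mitochondrial superoxide dismutase, at -1.05 ± 0.14 (adjusted p = 1.9e-06), and the autophagy kinase genes Ulk1 and Ulk2 at -0.97 ± 0.17 and -1.02 ± 0.15. Pnpla2, close to Lrrc2 in its pattern, rose in MIGIRKO by 0.52 ± 0.21 (edgeR adjusted p = 0.0496). With library totals 16 of the 30 were called higher and 5 lower in MIGIRKO. In QKO against MIGIRKO, a contrast that selected the 8 genes, 11 of the 30 were called lower and 4 higher. The median there was -0.33 (all genes -0.03), and 14.0% of all genes were called lower.

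Around Maob, 2 of 10 genes of amine and aldehyde oxidation rose in MIGIRKO and 3 fell (4 and 2 with library totals). Aldh1a1, an aldehyde dehydrogenase that also makes retinoic acid, fell in all 3 receptor knockouts, with log2 changes of -2.92 ± 0.21 in MIGIRKO (edgeR adjusted p = 2.3e-11), -1.95 ± 0.23 in MIRKO (adjusted p = 7.7e-06) and -0.90 ± 0.20 in MIGF1RKO (adjusted p = 0.028). In QKO, where Maob was lowest, the Aldh1a1 mean was 156 ± 44.7 CPM (SD, n = 7) beside 168 ± 28.9 in Qlox (n = 2). Smox, the spermine oxidase gene, fell (-2.22 ± 0.42), and Aoc3, an amine oxidase of the cell surface, rose (1.59 ± 0.23). Maoa, the sister gene of Maob, was named after its values were seen and stood at -0.53 ± 0.21 in MIGIRKO (adjusted p = 0.053).

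Among the partners of Cbfb, 3 of 10 core binding factor genes rose in MIGIRKO and 4 fell (5 and 0 with library totals). Runx1, the Runx partner that muscle raises after denervation, rose by 3.29 ± 0.52 in MIGIRKO (edgeR adjusted p = 2.7e-05) and by 2.21 ± 0.51 in MIRKO (adjusted p = 0.031), opposite in direction to Cbfb. It was at 29.9 to 45.9 CPM in MIGIRKO and 3.36 to 4.49 in IRIGFRlox, with no shared value. In QKO it ran from 4.36 to 37.5 CPM, with 2 libraries, QKO 4 and QKO 6, above 29. The Runx co-repressor gene Tle3 rose in MIGIRKO (1.24 ± 0.22), and Ep300 (-0.65 ± 0.15) and Hipk2 (-1.06 ± 0.25) fell, both of which lost their calls with library totals.

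Beside Setd7, 6 of 32 genes listed as lysine methyltransferases fell in MIGIRKO and 0 rose (median -0.06). They included Smyd1, a methyltransferase of the sarcomere (-0.69 ± 0.15, edgeR adjusted p = 0.00098), Kmt5a (-0.66 ± 0.18) and Setmar (-1.07 ± 0.33). With library totals 15 of the 32 were called higher and 0 lower, on a scaling that called 6314 of all 13646 genes higher and 688 lower. Smyd1 was at 1070 ± 168 CPM in QKO and 1063 ± 74.1 in Qlox. Of the tetraspanins other than Tspan8, 13 of 24 rose in MIGIRKO and 2 fell (17 and 0 with library totals), which is the other direction from Tspan8. Cd82 (1.40 ± 0.33), Tspan13 (1.13 ± 0.27) and Cd63 (0.83 ± 0.21) rose and Tspan3 (-0.45 ± 0.12) fell, the last at 0.04 with library totals.

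Around Dkk3, 3 of 21 Wnt antagonist and pathway genes rose in MIGIRKO and 3 fell (8 and 0 with library totals). Tcf7l2, a transcription factor of the pathway (0.82 ± 0.22), and Sfrp1, a secreted Wnt antagonist (1.33 ± 0.37), rose. Lrp6, the co-receptor (-0.52 ± 0.12), and the kinase gene Gsk3b (-0.58 ± 0.19) fell, and both were near 0 with library totals (-0.03 and -0.09).

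Of 23 iron and copper genes beside Cp, 6 rose and 4 fell in MIGIRKO (13 and 3 with library totals). Slc40a1, the ferroportin gene, whose product exports the iron that ceruloplasmin oxidises, fell in MIGIRKO (-2.54 ± 0.34, edgeR adjusted p = 3.2e-06), opposite to Cp. It was at 9.83 ± 5.17 CPM in MIGIRKO, 9.37 ± 3.41 in QKO, 57.4 ± 8.52 in IRIGFRlox and 34.8 ± 3.20 in Qlox. The hemojuvelin gene Hfe2 fell (-1.03 ± 0.16) and Steap4, a metalloreductase gene, rose (0.96 ± 0.19). Hephl1, a relative of ceruloplasmin, had 0 counts in every IRIGFRlox and Qlox library and a mean of 3.60 ± 1.78 CPM in MIGIRKO.

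Of 23 dual-specificity phosphatase genes other than Dusp26, 3 rose and 10 fell in MIGIRKO (10 and 5 with library totals). Dusp4, a nuclear MAP kinase phosphatase, rose with Dusp26, by 2.59 ± 0.39 in MIGIRKO (edgeR adjusted p = 8.3e-06) and by 1.73 ± 0.44 in MIRKO (adjusted p = 0.042). In QKO it was at 3.25 ± 1.02 CPM, beside 16.4 ± 6.33 in MIGIRKO and 1.72 ± 0.81 in Qlox. Dusp3 (-0.91 ± 0.12), Dusp13 (-1.29 ± 0.19) and Dusp8 (-1.14 ± 0.21) fell. Of 8 leucine-rich repeat genes of muscle beside Lrrc2, 6 fell in MIGIRKO and 0 rose, among them Lrrc20 (-1.49 ± 0.19), Lrrc30 (-2.03 ± 0.26), Lrtm1 (-1.25 ± 0.21) and Lrrc39 (-0.68 ± 0.14), and with library totals 4 fell and 2 rose. Lrrc2 itself was higher in MIGIRKO without passing the test.

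**Figure D4:**
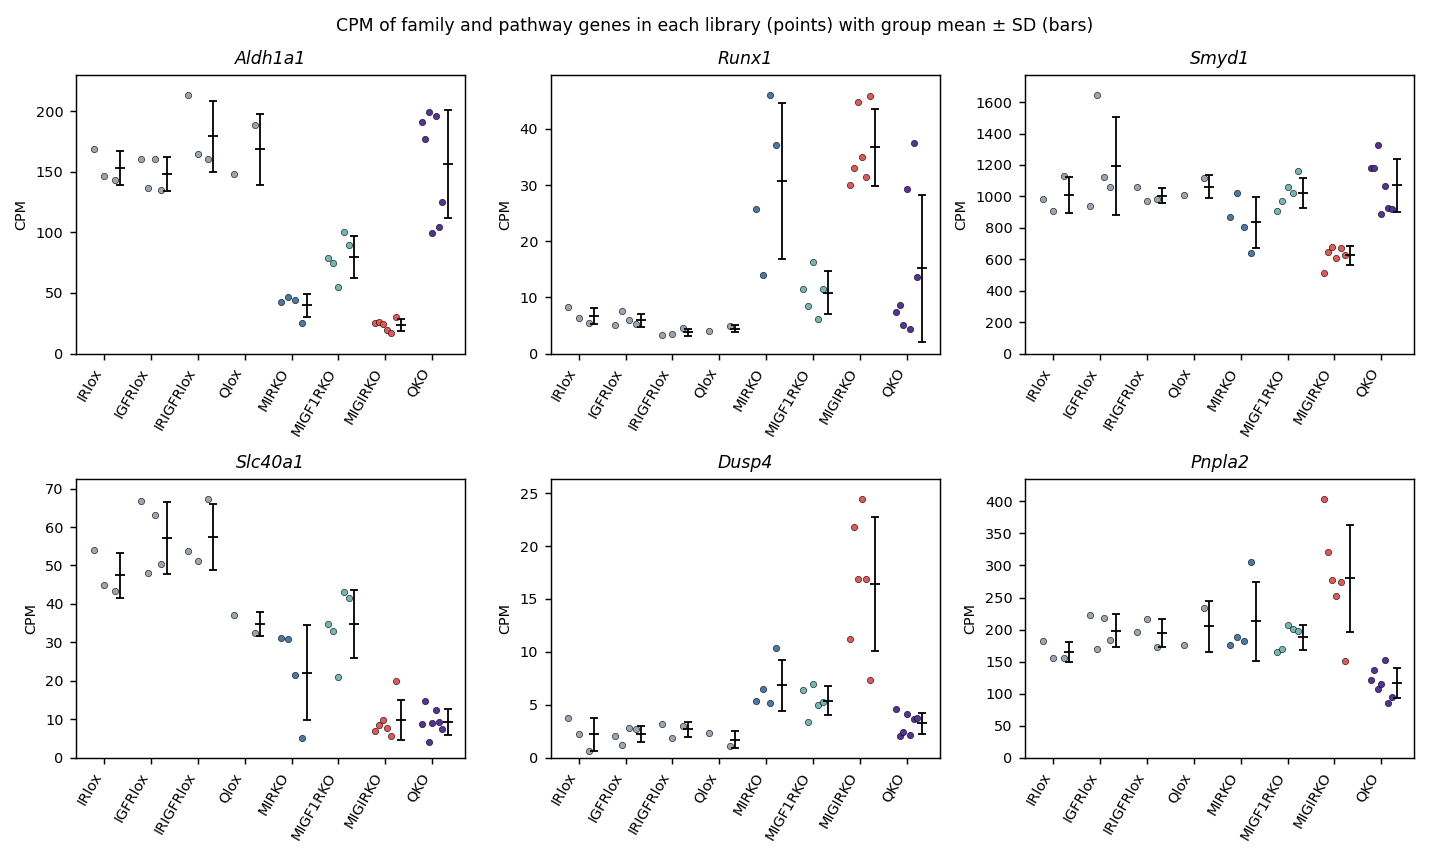
CPM (vertical axis, linear from 0) of 6 genes of the same families or pathways in each library, by genotype group; points are libraries and bars are mean ± SD. Aldh1a1 and Smyd1 have their lowest mean in MIGIRKO and a QKO mean near that of Qlox, Runx1 and Dusp4 are high in MIGIRKO, Slc40a1 is low in both, and Pnpla2 is lowest in QKO.

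Markers of several other cell types moved with the same groups, but not all lists did. In MIGIRKO 7 of 8 adipocyte markers, 8 of 10 fibroblast, 8 of 8 macrophage and leukocyte and 5 of 7 tested Schwann cell markers rose, and 7 of 12 myofiber markers fell. With library totals these counts were 7, 10, 8 and 6 higher, and of the myofiber markers 4 were lower and 3 higher. With TMM, 0 of 8 endothelium markers rose and 1 fell in MIGIRKO. Of 8 pericyte and smooth muscle markers 3 rose and 2 fell, and of 5 blood markers 0 were called. The summed adipocyte markers were at 585 to 1864 CPM in MIGIRKO, 390 to 749 in IRIGFRlox, 377 to 918 in QKO and 724 to 1146 in Qlox. The summed macrophage and leukocyte markers were at 435 to 1344 CPM in MIGIRKO, 147 to 205 in IRIGFRlox and 215 to 2742 in QKO, the last value being QKO 6. Adiponectin (Adipoq) and Ptprc counts were above 0 in every library. Aoc3, among the genes most like Cp, is also known from adipocytes. Of the markers, 7 adipocyte and 7 fibroblast markers were called lower in QKO against MIGIRKO, and 9 myofiber and 8 slow fiber markers higher. In the same contrast 1 of 8 macrophage and leukocyte markers was called lower, and 0 endothelium and 0 blood markers were called. In MIRKO the leukocyte sum was 458 to 1102 CPM, beside 267 to 331 in IRlox, with 0 of 8 of these markers called. The part of these cell markers in the rise of Cp and Dusp26 in MIGIRKO, and in their lower level in QKO, was not tested. For the 5 genes that fell in MIGIRKO, the part of the lower myofiber markers was likewise not tested. In QKO the summed myofiber markers were at 120140 to 217901 CPM, beside 176357 to 187140 in Qlox.

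**Figure D5:**
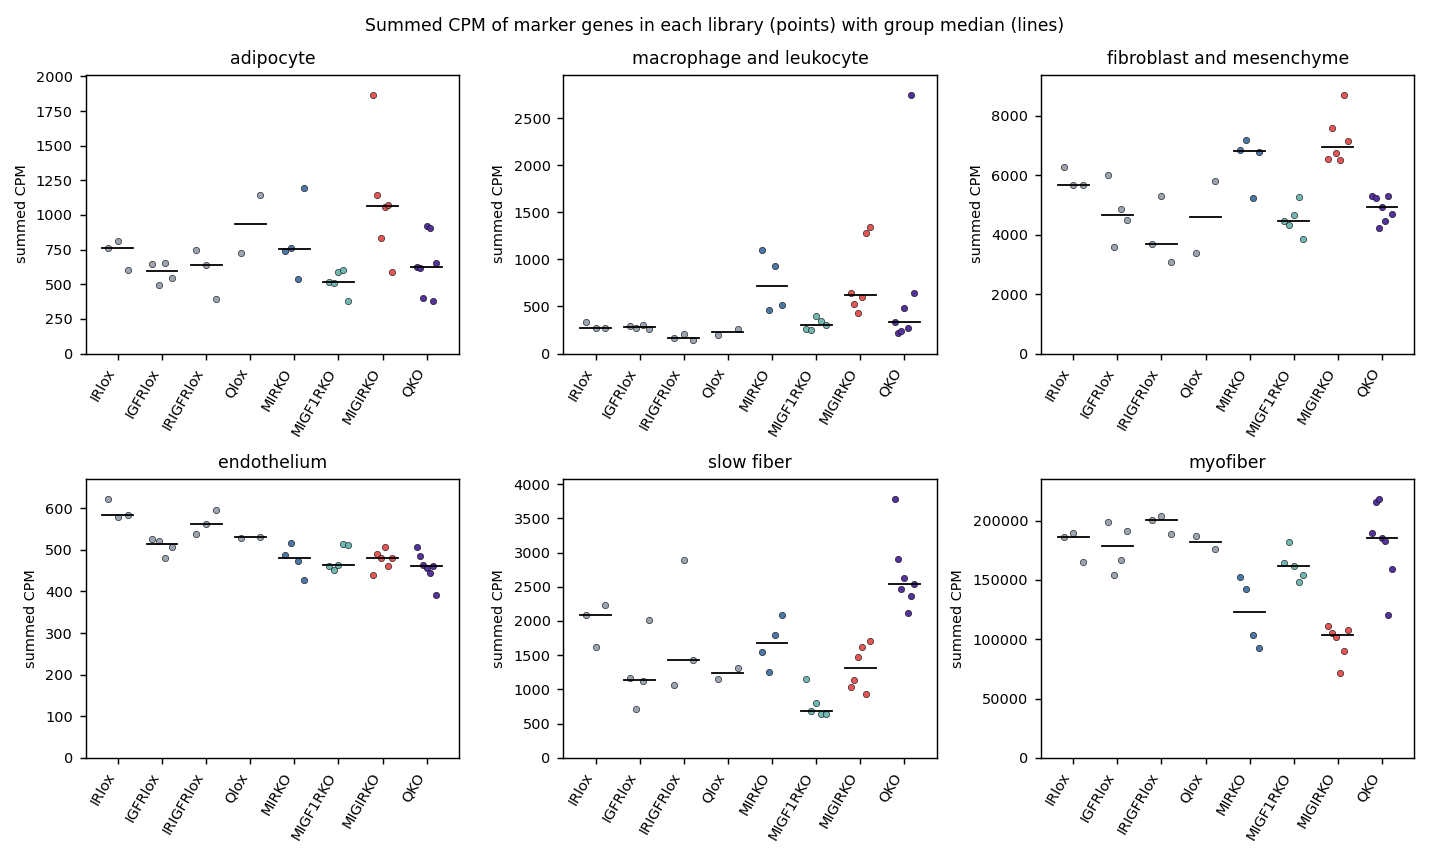
Summed CPM of marker genes (vertical axis, linear from 0) for 6 cell types in each library, by genotype group; points are libraries and lines are group medians. Adipocyte, fibroblast and leukocyte sums are high and myofiber sums low in MIGIRKO, and QKO 6 stands alone at 2742 CPM for leukocyte markers.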

How the data were processed

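Total RNA of 34 muscle libraries was sequenced from stranded libraries, per the labels' protocols. The deposited file holds raw counts per Ensembl gene for 1 column per library, made by the authors with STAR and featureCounts on GRCm38.p4, per the submitters' processing notes. Tool versions, annotation release and strand setting are not given in the sources used here. All columns matched a sample, and groups were taken from the labels.

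The tools were edgeR 4.0.16, DESeq2 1.42.0 and limma 3.58.1, run under R 4.3.3, with plots from matplotlib 3.10.9. Symbols and gene positions came from GENCODE M21 (45143 of the IDs matched). filterByExpr left 13646 genes. Scaling was by TMM. A single edgeR quasi-likelihood fit (glmQLFit, robust) held all 34 libraries and 1 mean for each group. P-values were adjusted by Benjamini-Hochberg over all tested genes, and a gene was called under 0.05. SE is the change over the square root of F, and CPM errors are SD. The libraries of a group are separate samples by their labels, and where nothing says that they came from separate animals the p-values measure the spread between these samples. Depth, 1499025 to 7581198 counts, limits the scarcer genes: Dkk3, Maob and Dusp26 had between 5 and 48 counts in each QKO library. The procedure was tested on simulated data.

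The 8 genes and all gene lists were chosen with earlier results of these data known. Besides the 8, the text names the targeted genes, up to 4 called genes of each list and comparison with the smallest adjusted p, the 3 genes most like each member (mean log2 CPM 1 or more), and marker genes. Alternatives were the DESeq2 test, limma-voom, DESeq2 size factors, library totals, no filter, CPM above 1 in at least 3 libraries, the 6 runs of library numbers as a term, all 12 floxed libraries as control, the compared groups only, and leaving out libraries. No gene set was tested.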

Additional observations from a re-analysis of the deposited data

Results flagged for a closer look

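In a group of IGFRlox libraries Cbfb stood apart in IGFRlox 4, at 157 CPM where the nearest of the others had 131. Setd7 stood apart in QKO 5, at 426 CPM where the nearest of the other QKO libraries had 346. These are 2 of the 40 groups examined for a library far from the rest, and chance alone marks about 1 in 20 groups. For Cp the libraries of different knockouts lay on opposite sides of their controls. Its log2 change was 0.38 in MIRKO against IRlox, which did not pass the test, and 0.99 in MIGIRKO against IRIGFRlox, which did, with every knockout library above every control, and -0.46 in QKO against Qlox, with every QKO library below both Qlox libraries. The last contrast, in which Cp was not called, was 1 of those that selected the genes, and the difference between the contrasts was not tested.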

How the results depend on the processing

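Over all alternatives, 1019 recomputed log2 changes of the 8 genes kept their direction and their side of the threshold, 22 passed it anew, 19 no longer passed and 20 turned. For MIRKO 1 of the 8 genes was called, and the count was 2 with the DESeq2 test, with library totals, with library runs as a term and without QKO 5 and QKO 6, 0 with no filter, with the compared groups only and with MIRKO 4 and MIGIRKO 6 left out, and 6 with all floxed libraries as control, which include Qlox. Leaving out 1 library gave 0 to 2. The number of all genes called moved with the setting too, as given below. These counts therefore cannot be set against the 1.25% of the main fit. For MIGF1RKO the count was 2, with 1 under library totals, 1 to 2 when 1 library was left out, and 1 to 3 over all alternatives. For MIGIRKO it was 7, with 5 to 8 over all alternatives. Directions turned for Cbfb, Setd7, Lrrc2 and Dkk3 in the comparisons and settings named next. Cbfb was at 0.0477 in MIRKO and 0.00966 in MIGIRKO with library totals. Setd7 in MIRKO was at 0.00241 with the DESeq2 test, 0.00257 with DESeq2 size factors, 0.24 with library totals, 0.0194 with the compared groups only, 0.14 with MIRKO 4 and MIGIRKO 6 left out, and -0.22 to 0.14 with 1 library left out. Lrrc2 in MIGF1RKO was at 0.0656 with library totals, 0.0739 with library runs as a term, 0.0285 with all floxed libraries as control and -0.0751 to 0.0451 with 1 library left out. With 1 library left out Dkk3 in MIRKO, at -0.40 with all libraries, ran from -0.66 to 0.00325 (without IRlox 2) and Setd7 in MIGF1RKO from -0.00542 to 0.22. The cause was not tested. Genes called over the whole table moved from 170 to between 9 and 2830 in MIRKO, from 84 to between 30 and 244 in MIGF1RKO, from 4603 to 7002 with library totals in MIGIRKO, and from 17 to between 4 and 49 among the floxed groups. With library totals 82.1% of the MIRKO calls and 57.6% of the MIGF1RKO calls were higher, against 30.6% and 42.9% with TMM. In QKO against MIGIRKO, library totals moved Maob to -1.47, Dkk3 to -0.68, Cbfb to -1.20, Lrrc2 to -2.27, Setd7 to -0.82 and Cp to -1.20. In QKO against Qlox, Dkk3 was at -1.70 with all floxed libraries as control, and leaving out 1 Qlox library gave -2.64 to -1.64 for Dkk3 and -1.97 to -0.56 for Dusp26. No paired analysis was possible because replicate numbers only count the libraries of a group and the labels tie no knockout mouse to a control. The library runs, fitted as a term above, are no pairing of mice.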
